A study of Mus musculus with 4 samples.

Results

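The RNA of 8 amino acid carriers of activated T cells was examined in sorted Treg cells labelled as spleen (the study's text also names lymph nodes): *Slc7a5*, *Slc3a2*, *Slc7a6*, *Slc1a5*, *Slc1a4*, *Slc38a1*, *Slc38a2* and *Slc7a1*. They were chosen by name from the 47729 listed genes, by a rule that uses no measured value. Earlier results of these data were known when they were chosen. All 8 had counts and were among the 12536 genes tested. Cells came from female C57BL/6 mice, 2 libraries labelled WT (*Tfrc* +/+ *Foxp3* YFP-Cre/+) and 2 labelled TfR1-deficient (*Tfrc* fl/fl *Foxp3* YFP-Cre/+). The labels number the libraries 1 and 2 in each genotype without naming separate mice, so p-values measure the spread between these libraries. Both genotypes carried the *Foxp3*-driven YFP-Cre allele on 1 X chromosome, and CD25+YFP+ cells were sorted from CD4 T cells, so the YFP- Treg cells of the same heterozygous animals stayed out of the libraries. In RNA of whole sorted samples, fewer cells of a type and less RNA per cell cannot be told apart. Mice were 6 to 8 weeks old by the general age range of the experiments, which sets apart only *Tfrc* fl/fl *Foxp3* YFP-Cre/y mice, and the number of animals behind a library was not given in the sources used here. The question addressed is whether Treg cells that lack TfR1, the transferrin receptor that brings iron into the cell, differ in the RNA of these carriers.

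Amino acids cannot cross the plasma membrane unaided, and a T cell that leaves rest has to import more of them for protein synthesis and growth. Carriers include exchangers, which let one amino acid out for another that comes in, and sodium-driven symporters, which accumulate amino acids. In T cells the exchanger LAT1, made of *Slc7a5* and the CD98 heavy chain *Slc3a2*, is known for supplying leucine, a signal to the growth kinase complex mTORC1, and its genes are known to be induced by T-cell receptor signals and Myc.

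Whole-gene counts do not show the deletion of *Tfrc* exons. *Tfrc* stood at 50.8 and 54.1 CPM in WT (counts scaled to library size with TMM factors), against 56.1 and 48.3 CPM in the TfR1-deficient samples, so every direction given here rests on the labels. Totals ran from 10841939 to 17278448 counts a library. The 8 Treg cell markers summed to 4932 to 5142 CPM in WT and 3830 to 4300 CPM in the TfR1-deficient libraries. Of their log2 fold changes 7 of 8 were below 0 (48.9% of all genes), with a median of -0.34. At the unadjusted p-value *Ctla4* was lower, as were 2.48% of all genes. All 12 macrophage markers were tested, none with groups that did not overlap (median 1.71). Their sum was 746 and 23.5 CPM in WT replicates 1 and 2 and 27.6 and 2555 CPM in TfR1-deficient replicates 1 and 2, with *Fcgr1*, *Mertk* and *Sirpa* at 0 in WT replicate 2. The 12 cell cycle genes (median 0.07) summed in the same order to 1834, 866, 931 and 1800 CPM. WT replicate 1 and TfR1-deficient replicate 2, 1 library of each genotype, thus stood apart in both respects. Erythroid markers (5 of 6 found, 4 tested, median 1.56) summed to 12.4 and 68.2 CPM in WT and 26.1 and 187 CPM in the TfR1-deficient libraries. The 6 B cell markers (2 tested, median -0.08) lay between 25.6 and 42.5 CPM in all 4.

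The 8 genes lay on 6 chromosomes in the RefSeq annotation of GRCm38.p6. *Slc7a5* was at chr8:121881146-121907686 and *Slc7a6* at chr8:106168219-106198714, 15.7 Mb apart. *Slc38a1* (chr15:96571418-96643438) and *Slc38a2* (chr15:96687392-96699728) were neighbours with 44.0 kb between them. *Slc3a2* was at chr19:8706882-8723369, *Slc1a5* at chr7:16781334-16798274, *Slc1a4* at chr11:20302180-20332713 and *Slc7a1* at chr5:148327410-148399904. Of the 8, *Slc38a1* overlapped another annotated gene, the noncoding *Gm32457*.

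RefSeq promoter windows, from 250 bases before to 50 after a transcription start, were at hand for 5 of the 8 genes, in 7 windows. No window was at hand for *Slc7a5*, *Slc1a5* and *Slc38a1*, so their promoters were not searched. They were searched on both strands for 3 motifs of factors known to act on carrier genes or in activated T cells. The E-box CACGTG, bound by Myc with Max, was in 0 of the 7 and in 7.15% of all 32851 windows. The composite element TGATGCAA, bound by the stress factor ATF4 with a C/EBP partner, was in the *Slc1a4* window and in 0.895% of all windows. The AP-1 site TGANTCA, bound by Fos and Jun dimers, was in 1 *Slc7a1* window and in 7.81% of all windows. The 2 matches lay in different genes. A match describes the letters only, and binding was not measured. Both matches are shown 5′ to 3′ on the minus strand of GRCm38.p6, in the direction of transcription, with the motif in capitals. The *Slc1a4* stretch is chr11:20332699-20332728, and its element begins 4 bases before the start. The *Slc7a1* stretch is chr5:148400009-148400038, and its site begins 123 bases before the start.
Slc1a4: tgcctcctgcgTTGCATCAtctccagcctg
Slc7a1: gccatcagctcTGACTCAagctcagttgcg

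Levels between genes were compared as CPM per kb of exon. *Slc3a2*, the heavy chain that brings its light chain partners to the membrane, was the highest, with 87.9 and 74.6 CPM per kb in the WT libraries and 77.0 and 89.5 CPM per kb in the TfR1-deficient ones. This placed it at percentile 92.9 of the 11604 tested genes with a known exon length. *Slc38a2*, the sodium-driven carrier SNAT2 for small neutral amino acids, followed at 33.6 to 48.5 CPM per kb over the 4 libraries, and *Slc7a6*, the y+LAT2 light chain that exchanges arginine for neutral amino acids, at 34.8 to 41.8 CPM per kb. These 2 ranges overlapped, and in TfR1-deficient replicate 2 their order was turned. *Slc1a5*, the glutamine exchanger ASCT2, was at 20.4 to 32.2 CPM per kb and *Slc38a1*, the glutamine symporter SNAT1, at 14.1 to 19.2 CPM per kb. The cationic carrier *Slc7a1* (CAT1), which imports arginine and lysine, was lower at 4.51 to 9.39 CPM per kb.

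*Slc7a5*, the light chain of LAT1, was the second lowest of the 8, at 2.05 to 2.53 CPM per kb, which is percentile 26.4 of the genes tested. *Slc1a4*, the exchanger ASCT1 for alanine, serine and cysteine, was lowest, at 0.161 to 0.382 CPM per kb and percentile 3.6. Its values rested on 13 and 16 counts in the WT libraries and 11 and 18 in the TfR1-deficient libraries. Between neighbours in this order the ranges of the 4 libraries did not overlap, apart from *Slc38a2* and *Slc7a6*. The longest coding transcript was also used in place of the exon union. The median was then 37.4 CPM per kb for *Slc1a5* and 37.0 CPM per kb for *Slc7a6*, so that these 2 changed places. Their ranges overlapped, and that of *Slc1a5* (30.9 to 48.7) also overlapped that of *Slc38a2* (33.6 to 48.5). The other 6 kept their rank.

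**Figure D1:**
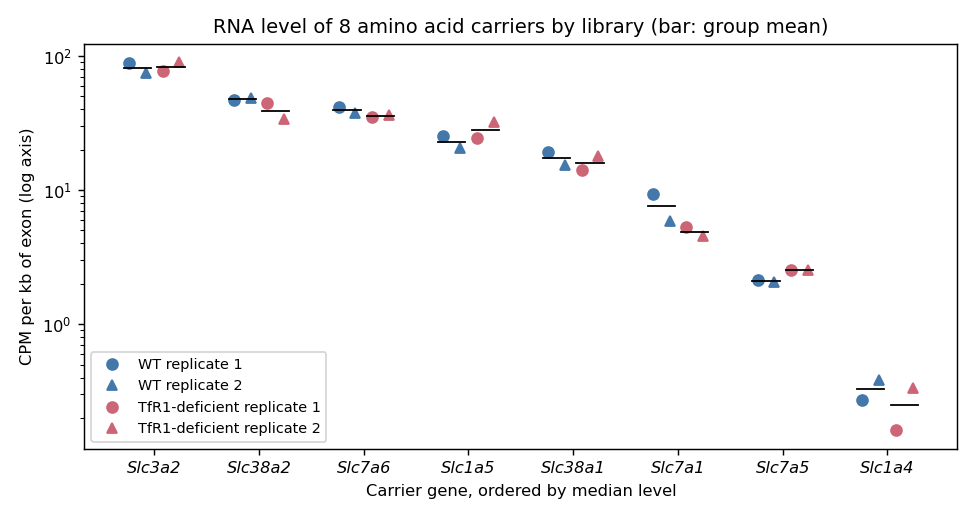
RNA level of each carrier in CPM per kb of exon (log axis), with blue symbols for the WT and red symbols for the TfR1-deficient libraries, circles for replicate 1, triangles for replicate 2 and a black bar at each group's mean. The genes fall from *Slc3a2*, at 74.6 to 89.5, to *Slc1a4*, at 0.161 to 0.382, and for each gene the WT and TfR1-deficient symbols lie close together on this scale.

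The heavy chain *Slc3a2* takes part in amino acid transport only with a light chain, and 6 light chain genes were set against it. *Slc7a6* made up 87.6% and 90.7% of the light chain RNA per kb in the WT libraries and 90.0% and 70.8% in the TfR1-deficient ones. *Slc7a5* made up 4.44% and 4.99% in WT and 6.52% and 4.91% in the TfR1-deficient libraries. Per kb, *Slc7a6* RNA was thus 19.7 and 18.2 times that of *Slc7a5* in WT, and 13.8 and 14.4 times in the TfR1-deficient libraries. The groups did not overlap, which held for 34.9% of all single genes tested, and no such share was computed for ratios. *Slc7a11*, the light chain of the cystine carrier xCT, had at most 7 counts in any library and was not tested.

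The lower share of *Slc7a6* in TfR1-deficient replicate 2 went with *Slc7a7* (y+LAT1) and *Slc7a8* (LAT2), at 17.8% and 4.77% there. In WT replicate 1 they were at 5.67% and 0.89%, in WT replicate 2 at 2.01% and 0%, and in TfR1-deficient replicate 1 at 2.23% and 0.04%. *Slc7a7* and *Slc7a8* had their highest levels in the 2 libraries with the most macrophage marker RNA, whose part in these values was not tested. *Slc7a5* and *Slc7a6* together were at 43.9 and 39.4 CPM per kb in WT and 37.4 and 39.1 CPM per kb in the TfR1-deficient libraries. *Slc3a2* was 1.73 to 1.99 times the sum of the 6 light chains in the 4 libraries, and the groups overlapped. Against *Slc7a5* and *Slc7a6* alone it was 2.0 and 1.89 times in WT and 2.06 and 2.29 times in the TfR1-deficient libraries. These groups did not overlap, by a small margin, where 34.9% of all single genes tested had groups apart. For ratios no such share was computed.

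**Figure D2:**
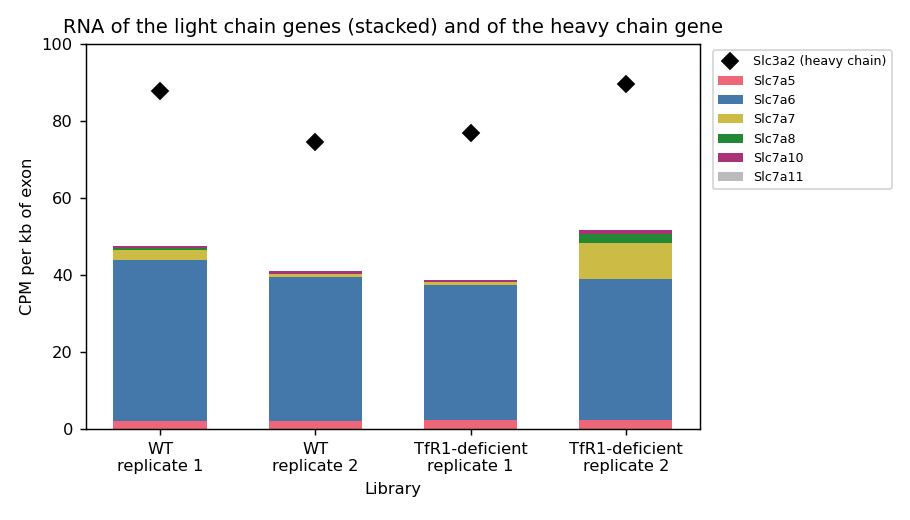
Stacked bars show the RNA of 6 light chain genes and black diamonds that of the heavy chain *Slc3a2*, in CPM per kb of exon, for each of the 4 libraries. *Slc7a6* (blue) fills 70.8% to 90.7% of each bar, *Slc7a5* (red) 4.44% to 6.52%, and *Slc7a7* and *Slc7a8* are most visible in TfR1-deficient replicate 2.

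Between the genotypes, 0 of the 8 carriers were called (p-value under 0.05 and a log2 fold change of 0.5 or more in size) by the quasi-likelihood test of edgeR after Benjamini-Hochberg adjustment, and their lowest adjusted p was 0.911. The background was 0% of the genes tested in each direction. At the unadjusted p-value 0 of the 8 passed, where 1.60% of all genes were higher and 2.48% lower. DESeq2's Wald test gave 0 of 8 at the adjusted and 1 of 8, *Slc7a1*, at the unadjusted p-value (0.0434). By that test, 219 of the 22368 genes with a count were higher and 313 lower at the unadjusted p-value. The median log2 fold change of the 8 was -0.13, against 0.01 for all genes tested, with 5 of the 8 values below 0 (48.9% of all genes) and 3 above it (51.1%). Without WT replicate 1 the median was 0.02 and without TfR1-deficient replicate 1 it was 0.05, so its sign rested on these libraries.

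Fold changes in the following are ratios of fitted levels, with 95% intervals from the same edgeR fit. In the libraries labelled TfR1-deficient, 3 of the 8 genes lay below both WT libraries (*Slc7a1*, *Slc38a2* and *Slc7a6*), as did 18.9% of all genes, and 1 gene lay above both (*Slc7a5*), as did 16.0%. For these 4 of 8 together the background was 34.9%. A test of 1 gene by exact permutation cannot go below p = 0.333 with 2 libraries against 2.

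Among the LAT1 and y+L genes, *Slc3a2* was at 260 and 221 CPM in WT and at 228 and 265 CPM in the TfR1-deficient libraries. The groups overlapped almost fully, and the fold change was 1.03, with an interval from 0.769 to 1.37.
*Slc7a5* was at 7.45 and 7.22 CPM in WT and at 8.87 and 8.91 CPM in the TfR1-deficient libraries. Both TfR1-deficient libraries were above both WT libraries, and the replicates of each genotype lay closer together than the counting error of 77 to 154 counts. Its log2 fold change of 0.28 had a standard error of 0.28 and an adjusted p of 0.955 in edgeR's test, with an interval from 0.737- to 1.99-fold.
*Slc7a6* was at 156 and 139 CPM in WT and at 130 and 136 CPM in the TfR1-deficient libraries. The groups were just apart, and the fold change was 0.903, with an interval from 0.705 to 1.16.

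Of the glutamine and neutral amino acid carriers, *Slc1a5* was at 105 and 84.9 CPM in WT and at 101 and 134 CPM in the TfR1-deficient libraries. TfR1-deficient replicate 2 was the highest and the other TfR1-deficient library lay between the WT libraries. Its log2 fold change of 0.31, the highest of the 8, had a standard error of 0.20 and an adjusted p of 0.936 in edgeR's test, with an interval from 0.861- to 1.77-fold. Leaving out replicate 1 of WT gave 0.48 and of TfR1-deficient 0.50, and leaving out replicate 2 of WT gave 0.16 and of TfR1-deficient 0.08.
*Slc1a4* was at 1.06 and 1.5 CPM in WT and at 0.634 and 1.31 CPM in the TfR1-deficient libraries. With at most 18 counts a library, its interval ran from 0.234- to 2.45-fold, so folds across that whole range remained compatible with these counts.
*Slc38a1* was at 161 and 128 CPM in WT and at 118 and 151 CPM in the TfR1-deficient libraries. The groups overlapped, and the fold change was 0.931, with an interval from 0.657 to 1.32. Its neighbour *Slc38a2* was at 216 and 224 CPM in WT and at 205 and 156 CPM in the TfR1-deficient libraries. Both TfR1-deficient libraries were below both WT libraries, by a small margin in replicate 1. Its log2 fold change of -0.29 had a standard error of 0.18 and an adjusted p of 0.934 in edgeR's test (interval from 0.596- to 1.12-fold), and leaving out TfR1-deficient replicate 1 gave -0.50 and leaving out TfR1-deficient replicate 2 gave -0.11.

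*Slc7a1*, the arginine carrier, showed the largest difference of the 8. It was at 70.6 and 44.1 CPM in WT and at 39.9 and 33.9 CPM in the TfR1-deficient libraries. WT replicate 1 was the high value, and the other WT library lay just above TfR1-deficient replicate 1. The log2 fold change was -0.64 (standard error 0.27), a fold of 0.644 with an interval from 0.402 to 1.03, and the adjusted p was 0.911 (unadjusted 0.0611) in edgeR's test. Without WT replicate 1 the log2 fold change was -0.25, and without WT replicate 2 it was -0.93, with an unadjusted p of 0.0112. In the 2 libraries poor in macrophage and cell cycle RNA (TfR1-deficient replicate 1 against WT replicate 2), the log2 difference of the CPM values was -0.14. In the 2 rich ones it was -1.05, so that most of the difference lay in that pair. The part of macrophage or cell cycle RNA in this value was not tested.

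**Figure D3:**
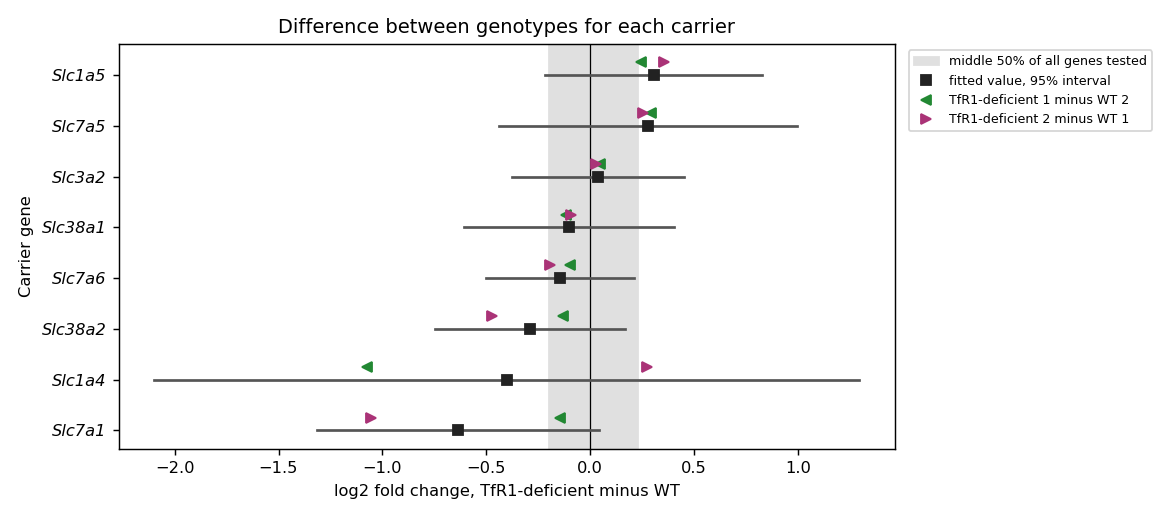
Black squares with lines give the fitted log2 fold change of each carrier (TfR1-deficient minus WT) with its 95% interval, the triangles give the log2 difference within the pair of libraries poor (green) and rich (purple) in macrophage RNA, and the grey band holds the middle 50% of all genes tested. Every interval crosses 0, *Slc7a1* lies farthest to the left at -0.64, and its 2 pairs are at -0.14 and -1.05.

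How far the members vary among themselves was read from log2 CPM. The span over the 4 libraries was smallest for *Slc7a6* (0.26), *Slc3a2* (0.26) and *Slc7a5* (0.30) and largest for *Slc1a4* (1.08) and *Slc7a1* (1.05), where the median of all genes tested was 0.62. *Slc3a2* and *Slc38a1* had the most similar pattern, with a root mean square difference of 0.09 between their centred log2 CPM values over the 4 libraries. Both, like *Slc1a5*, were highest in WT replicate 1 and TfR1-deficient replicate 2, the libraries rich in macrophage and cell cycle RNA. The part of that RNA in this likeness was not tested. *Slc3a2* and its partner *Slc7a5* differed by 0.16, and *Slc3a2* and its partner *Slc7a6* by 0.11.
Over all genes tested, those nearest to *Slc7a5* by this measure were *1300001I01Rik* (0.01), *Erh* (0.02), *Dnajc2* (0.02), *Nktr* (0.02) and *Cops4* (0.02). With 4 libraries many genes come this close, and the likeness is a description.

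The other amino acid carriers of the plasma membrane were mostly low or not detected. Of 26 listed, 16 did not pass the count filter, among them *Slc7a3*, *Slc7a11* and *Slc38a5*, and the highest count of any of the 16 in a library was 23, for *Slc3a1*. Of the 10 tested, 0 passed at either p-value. The median log2 fold change was 0.44, and without TfR1-deficient replicate 2 it was -0.59. *Slc36a4*, a carrier for proline and tryptophan, was at 24.8 and 24.7 CPM in WT and at 18.4 and 8.40 CPM in the TfR1-deficient libraries, a log2 fold change of -0.88 (standard error 0.41). Both TfR1-deficient libraries were below WT, replicate 2 by far the more. *Slc7a10* and *Slc43a1* had log2 fold changes of -0.26 and -0.01.
The taurine carrier *Slc6a6*, with more counts than most of these 10, was at 69.9 and 50.8 CPM in WT and 58.5 and 68.0 CPM in the TfR1-deficient libraries, and its groups overlapped.

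The 3 highest fitted values in this list had wide errors: *Slc1a3* 2.64 (standard error 2.17), *Slc7a8* 2.49 (2.11) and *Slc16a10* 1.74 (0.78). *Slc1a3*, the glutamate carrier EAAT1, was at 4.99 and 0.187 CPM in WT and at 0.115 and 32.8 CPM in the TfR1-deficient libraries. *Slc7a8* was at 1.72 and 0 CPM in WT and at 0.0576 and 9.93 CPM in the TfR1-deficient libraries. *Slc16a10*, the aromatic amino acid carrier TAT1, was at 0.819 and 1.12 CPM in WT and at 1.38 and 5.18 CPM in the TfR1-deficient libraries. *Slc1a3* and *Slc7a8* were highest in the same 2 libraries as the macrophage receptor gene *Csf1r*, at 124 and 1.97 CPM in WT and 4.96 and 371 CPM in the TfR1-deficient libraries, while *Slc16a10* was high in TfR1-deficient replicate 2 alone. The part of macrophage RNA in these values was not tested.

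**Figure D4:**
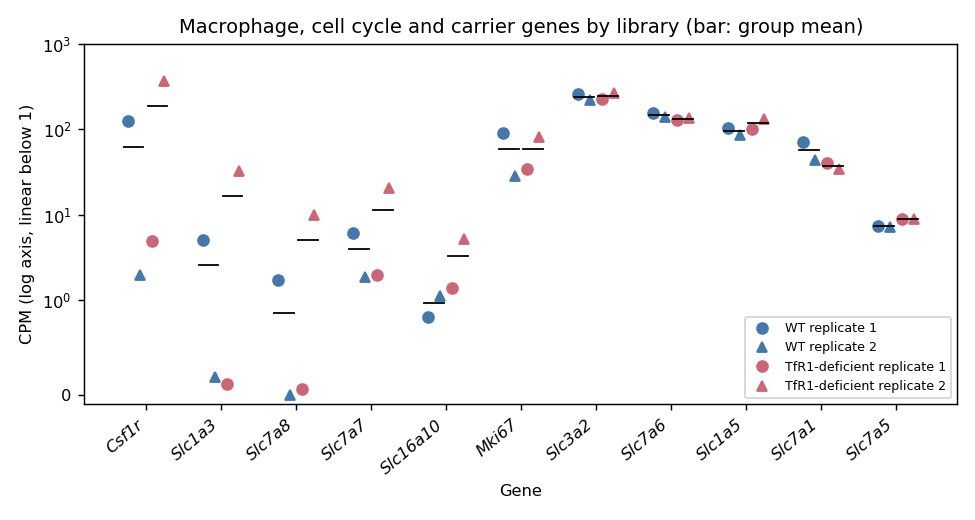
CPM (log axis, linear below 1) by library for *Csf1r*, 4 carriers of the wider list, the cell cycle gene *Mki67* and 5 of the 8 carriers, with colours and symbols by genotype and replicate and a black bar at each group's mean. *Csf1r*, *Slc1a3*, *Slc7a8* and *Slc7a7* are high in WT replicate 1 and TfR1-deficient replicate 2, and *Slc3a2*, *Slc7a6* and *Slc7a5* lie close together in all 4 libraries.

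Many carriers of the lysosomal membrane return amino acids from protein breakdown to the cytosol. Of 10 listed, 9 were tested and 0 passed at either p-value, with 7 of the 9 fitted values above 0 (51.1% of all genes) and a median log2 fold change of 0.30. The groups did not overlap for 3 of the 9, all higher in the TfR1-deficient libraries, as did 16.0% of all genes. *Slc36a1* (PAT1) was at 3.52 and 3.66 CPM in WT and at 5.88 and 5.62 CPM in the TfR1-deficient libraries, a log2 fold change of 0.68 (standard error 0.33). *Slc38a9*, a carrier that also signals arginine to mTORC1, was at 18.1 and 19.4 CPM in WT and at 21.8 and 24.5 CPM in the TfR1-deficient libraries. The cystine exporter *Ctns* was at 24.2 and 19.7 CPM against 26.9 and 28.2 CPM. *Slc15a3* and *Mfsd12* had fitted values of 0.74 and 0.59 with overlapping groups, and *Slc17a5*, *Slc15a4* and *Slc38a7* were the 3 lowest, at -0.10, -0.05 and 0.01. The median of the list was 0.12 without TfR1-deficient replicate 2.

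The mTORC1 amino acid sensing genes, which carry the signal of the imported amino acids, were all tested (36 of 36). At the adjusted p-value 0 passed. At the unadjusted one 1 was higher and 0 were lower, where 1.60% of all genes were higher and 2.48% lower. The median log2 fold change was -0.04. *Rheb*, the small GTPase that switches mTORC1 on, was the one that passed, at 106 and 79.7 CPM in WT and at 142 and 124 CPM in the TfR1-deficient libraries. Its log2 fold change was 0.52 (standard error 0.19, unadjusted p = 0.0422, adjusted p = 0.911 in edgeR's test). *Mtor* itself was at 38.6 and 34.5 CPM in WT and 36.4 and 30.2 CPM in the TfR1-deficient libraries. The lowest values of the list were those of *Nprl3* (-0.32), *Wdr59* (-0.32) and *Sesn2* (-0.30), of which *Sesn2* is a leucine sensor, and *Fnip2* (0.46) and *Bmt2* (0.43) followed *Rheb* at the upper end.

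Enzymes that use the imported amino acids were listed as 24 genes, of which 20 were tested. At the adjusted p-value 0 passed. At the unadjusted one 1 was higher (1.60% of all genes) and 0 were lower (2.48% of all genes). *Srm*, the spermidine synthase of polyamine synthesis, was at 8.10 and 7.59 CPM in WT and at 14.3 and 12.0 CPM in the TfR1-deficient libraries, a log2 fold change of 0.74 (standard error 0.28, unadjusted p = 0.0416, adjusted p = 0.911 in edgeR's test). The groups were well apart. The glutamate dehydrogenase *Glud1* and the glutamine synthetase *Glul* followed with 0.52 and 0.32 and overlapping groups. *Bckdhb* (-0.46), *Gpt2* (-0.42) and *Got2* (-0.29) were the lowest. The median was 0.07, and it was -0.06 without TfR1-deficient replicate 2.

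Of 14 genes known to control the amount of carriers, all were tested and 0 passed at either p-value, with 10 of 14 fitted values below 0 (48.9% of all genes) and a median log2 fold change of -0.16. *Myc* was at 481 and 436 CPM in WT and at 386 and 367 CPM in the TfR1-deficient libraries, a log2 fold change of -0.28 (standard error 0.14, unadjusted p = 0.0902, adjusted p = 0.911 in edgeR's test). Both TfR1-deficient libraries were below both WT libraries, which held for 5 of the 14 genes (18.9% of all genes). For 3 of the 14 both lay above both WT libraries (16.0%), so the groups of 8 were apart (34.9%). *Atf4* was at 89.1 and 67.3 CPM in WT and at 60.5 and 74.5 CPM in the TfR1-deficient libraries, and its groups overlapped. The lowest values were those of *Epas1* (HIF-2α, -0.85), *Sgk1* (-0.67) and *Hif1a* (-0.43). *Epas1* was at no more than 2.54 CPM in any library. The ubiquitin ligase gene *Nedd4* was the highest, at 7.78 and 3.56 CPM in WT and at 11.4 and 10.5 CPM in the TfR1-deficient libraries (0.94, standard error 0.45), before *Eif2ak4* (0.32), which encodes the amino acid starvation kinase GCN2, and *Bsg* (0.16).

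**Figure D5:**
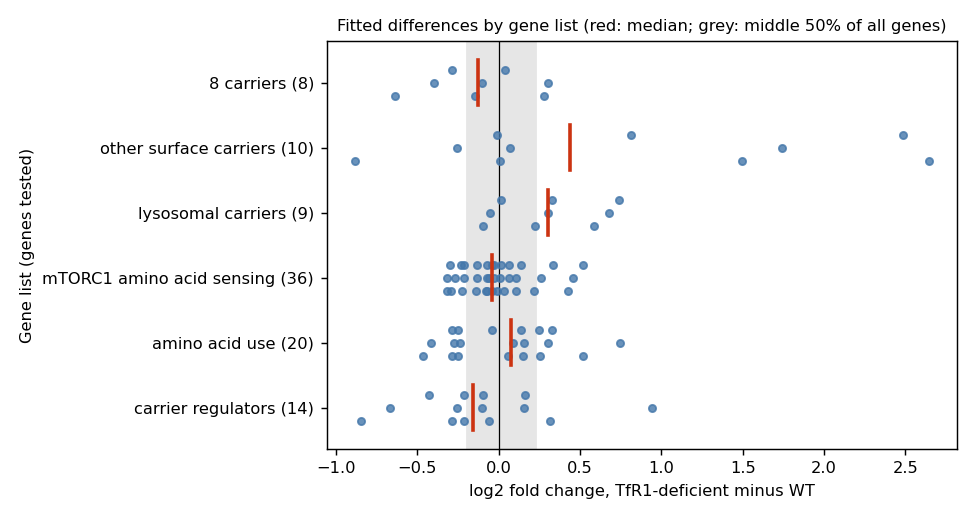
Each point is the fitted log2 fold change (TfR1-deficient minus WT) of 1 gene, grouped by list with the number of genes tested, red lines mark the medians, and the grey band holds the middle 50% of all genes tested. The medians run from -0.16 for the carrier regulators to 0.44 for the other surface carriers, whose values spread widest.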

How the data were processed

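RNA of sorted CD25+YFP+ Treg cells, labelled as spleen, was sequenced from NEBNext Single Cell/Low Input libraries. The study's text also names lymph nodes as a source. The authors deposited raw read counts, 1 whole number for each Ensembl gene and library. The submitters' processing notes name Trim Galore 0.6.7, STAR 2.7.9a, featureCounts and mm10, while the paper's methods name mm9 with STAR. Strand, annotation release and the handling of multimapped reads are not given in the sources used here. Symbols were found for 32799 of 47729 identifiers.

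In R 4.3.3 with edgeR 4.0.16, filterByExpr kept 12536 genes. TMM factors and a quasi-likelihood fit on genotype alone followed, with Benjamini-Hochberg adjustment over every gene kept. Calls needed p under 0.05 and a log2 fold change of 0.5 or more in size. Standard errors are the log2 fold change over the square root of F. Medians of lists leave out genes not tested, and log2 CPM has a prior count of 2. DESeq2 1.42.0, other scalings and filters, a replicate block and the omission of each library were alternatives. Exon lengths are exon unions of GENCODE vM1. The fit was also run on counts simulated independently for each gene. These lack the shared differences between replicates of the real libraries, and the outcome is not given here.

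All 8 carriers, the 3 extremes of each list in both directions and list genes called at the unadjusted p-value were to be named, with 5 genes nearest to *Slc7a5*. The carriers and lists were chosen with earlier results of these data known. Other genes were named after their values were seen. Replicates differed beyond sampling noise (chi-square divided by its degrees of freedom, 31.1 in WT and 51.0 in TfR1-deficient). Precision was limited by depth for *Slc1a4* and by having 2 libraries a genotype for all carriers.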

Additional observations from a re-analysis of the deposited data

How the results depend on the processing

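None of the 8 carriers passed the adjusted p-value in the main test or in any of 10 other settings with a p-value, and *Slc7a1* passed the unadjusted one with DESeq2, without the count filter and without WT replicate 2. At the unadjusted p-value, 219 genes were higher and 313 lower of 22368 with DESeq2, and 650 and 445 of 22368 without the count filter. A crossed pairing, given below, was not among these settings. *Slc7a1*, *Slc38a2*, *Slc7a6*, *Slc7a5* and *Slc1a5* kept their sign in all 12 alternatives. With each library left out in turn, *Slc3a2* ran from -0.08 to 0.17 (-0.08 without WT replicate 2, and -0.08 when TfR1-deficient replicate 2 was left out), *Slc1a4* from -1.01 to 0.040 (without TfR1-deficient replicate 1) and *Slc38a1* from -0.29 to 0.085 (without WT replicate 1; 0.06 when TfR1-deficient replicate 1 was left out). The pair of WT replicate 1 and TfR1-deficient replicate 2 gave *Slc1a4* 0.27. With each library left out, the median of the 8 ran from -0.18 to 0.052, of other surface carriers from -0.59 to 1.0, of lysosomal carriers from 0.12 to 0.36, of mTORC1 sensing genes from -0.11 to 0.024, of amino acid use from -0.056 to 0.10 and of regulators from -0.26 to -0.07. The median of other surface carriers was 0.03 with at least 10 counts in every library and 0.96 without a count filter. In pairs of 1 library each, chosen after seeing the data and with no test, the lysosomal median was 0.066 (replicates WT 2 and TfR1-deficient 1) and 0.41 (the other pair). Fits that leave 1 library in a group assume that it varies like the others.

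Counts over all genes at the adjusted p-value, 0 higher and 0 lower in edgeR (200 and 311 at the unadjusted p-value), were 6 and 28 with DESeq2 and 167 and 95 without a count filter, which also gave 650 higher at the unadjusted p-value, and the cause was not tested. With each library left out, the unadjusted counts ran from 151 to 268 higher and from 140 to 372 lower. The replicate numbers did not pair the libraries (correlation of deviations -0.61), and the replicate block gave 70 higher and 141 lower at the unadjusted p-value and changed the call of no carrier. Crossing the pairing, a choice made after seeing the data, gave 150 higher and 210 lower at the adjusted and 596 and 519 at the unadjusted p-value. That fit was not among the settings read for the carriers, and none of their values are given from it.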
